A study of Mus musculus with 12 samples.

Results

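The data described here are the skeletal muscle arrays of a mouse study of dietary iron overload, chosen by their sample labels as the 3 arrays labelled skeletal muscle on the iron diet and the 3 labelled skeletal muscle on the control diet, 6 of 12 samples in all. The mice were male C57BL/6 animals aged 18 weeks, with no transgene or deletion in either group. Control mice ate a diet holding 0.02% iron, and the high-iron mice ate that diet with 2% carbonyl iron added, for 6 weeks per the study's methods. The muscle was the extensor digitorum longus, a fast muscle of the lower leg, from 3 separate mice per diet, and the other 6 samples were hearts of mice on the same diets. The arrays show RNA levels only, and no iron content of this muscle is among the values analysed here.

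Iron is needed for myoglobin, the respiratory chain and iron-sulfur enzymes, and an excess of free iron can feed the formation of reactive oxygen species. Cells adjust to iron mainly after transcription: iron regulatory proteins bind the mRNAs of ferritin, which stores iron, and of the transferrin receptor, which brings it in, so that the receptor's mRNA is broken down when cell iron is high. Skeletal muscle is also a main site of expression of hemojuvelin, the bone morphogenetic protein co-receptor by which the liver senses iron. Proteins damaged by heat or oxidation are met by chaperones, whose genes share a transcription factor, heat shock factor 1. The immediate early genes, such as Fos and Jun, are switched on within minutes by contraction, stretch, growth factors or the handling of tissue.

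Each array gave a signal for 46133 probes, of which 29542 carried 1 gene symbol, 11 several and 16580 none. Median signals before normalization lay between 182.9 and 308.1, and replicate 1 was the brightest and replicate 3 the dimmest array on both diets. The signals were set to 1 common distribution (quantile normalization over the 12 arrays), and all values below are on that scale, where the median probe reads 256.6 and the dimmest 129.2. A value near 250 is therefore close to the level of probes with little or no RNA, and differences of such probes are understated. After normalization each pair of the 6 arrays correlated at 0.983 to 0.987. The tissue label was borne out by the fibre genes: Actn3, the fast fibre alpha-actinin, read 31626 to 35719, Tnnt3, fast troponin T, 47131 to 53969, and Myh4, the fast myosin heavy chain, 13355 to 19270. Myh6, the cardiac myosin heavy chain, read 231 to 260 and Nppa, the atrial natriuretic peptide gene, 248 to 272, both close to the median probe. In the hearts Myh6 read 2436 to 4651. The Nppa probe was dim there too, at 266 to 464, so its level says little about cardiac RNA in this muscle. Actc1, cardiac actin, which skeletal muscle also makes, ranged from 2266 to 11022 with no order by diet.

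The first question was which genes differed between the diets in this muscle. A fit across all probes (limma, two-sided, with Benjamini-Hochberg adjustment and a threshold of 0.05) called 10 probes higher (0.0217% of all probes) and 36 lower (0.078%) on the high-iron diet. They represented 9 genes that rose and 28 that fell, with 1 higher and 5 lower probes that have no gene name here. By the brightest probe of each gene, 0.051% of 17658 genes passed higher and 0.153% lower. Counts of calls within gene lists are to be read beside these shares. Without adjustment, 2.66% of all probes were higher and 2.46% lower at a p under 0.05, and the 3 arrays of each diet were fully separate for 5.24% of probes in the higher and 4.97% in the lower direction. All 46 called probes had arrays that did not overlap, the smallest called log2 difference was 0.38 in size, and all of them lay above the median probe in signal. The call depends on the processing: no probe passed when arrays were only scaled to 1 median (smallest adjusted p = 0.0852, limma) or when a background was first removed (0.151), although all 46 kept their direction in both. Leaving out high-iron replicate 1 ended the call of 20 of the 46 probes, and 24 probes passed without each array in turn. Second probes of some called genes, dimmer than the first, did not pass: they gave 0.10 and -0.14 for Hsp90aa1, -0.06 for Hspb1, -0.15 for Id1, 0.02 for Pdlim1, 0.02 for Slc38a2 and 0.11 and 0.10 for Gucd1. With 3 mice against 3, an exact permutation test of a single gene could not give a p below 0.1.

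**Figure D1:**
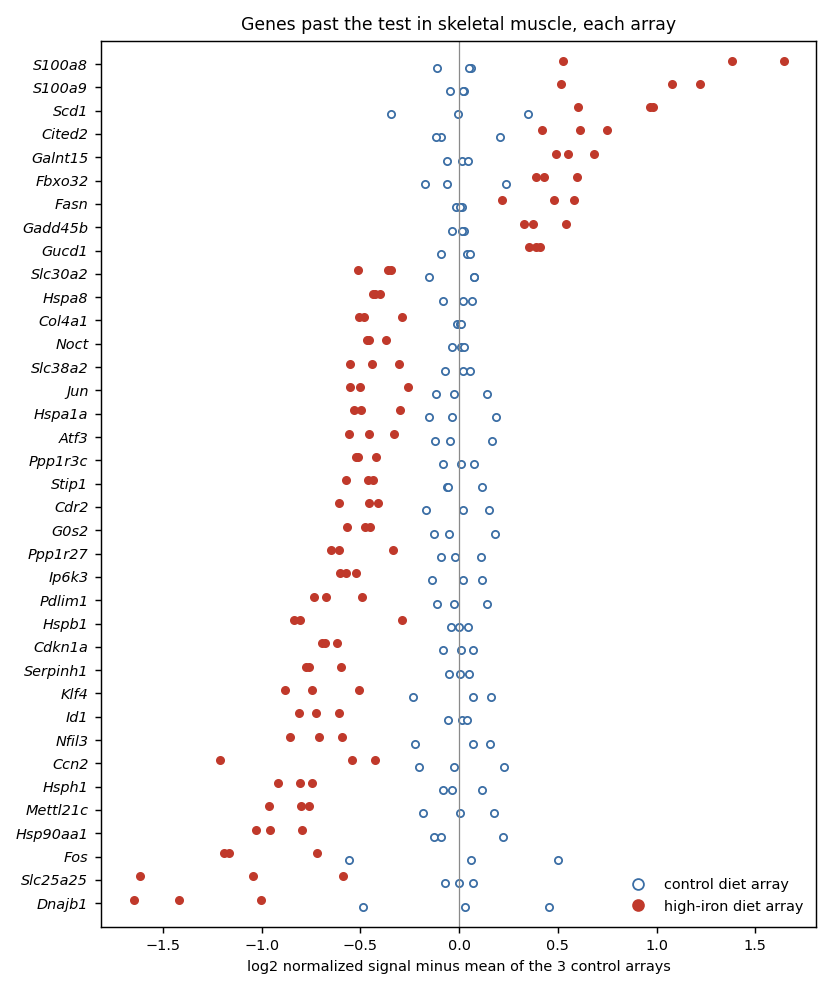
Log2 normalized signal of each array minus the mean of the 3 control arrays (horizontal axis) for the 37 genes that passed the test, with control arrays as open circles and high-iron arrays as filled circles. No filled circle lies among the open circles of its gene, and the spread is widest for S100a8 among the higher genes and for Dnajb1, Slc25a25, Fos and Ccn2 among the lower; Hspa8 is drawn from the probe that passed.

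The largest group among the genes that fell was that of the chaperones, which hold or refold unfolded proteins. Dnajb1, the Hsp40 partner of Hsp70, fell the furthest of all genes, and Hsp90aa1, Hsph1, Serpinh1, Hspb1, Stip1, Hspa1a and a probe of Hspa8 fell with it. Over 3 chaperone lists, 56 genes were measured, 7 passed lower and none higher by their brightest probe, and 41 had a log2 difference below 0. Of all 17658 genes, 8798 were above 0. The median of these 56 genes was -0.09, against -0.000284 for all 17658 genes, of which 0.153% passed lower. Their arrays did not overlap in the lower direction for 17 genes and in the higher direction for 1, against 5.57% and 5.62% of all genes. The lists were chosen with earlier results of these data known, and the study had already listed several of these genes as lower. The counts therefore describe the group and are not a separate test of it.

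Dnajb1 read 1828, 2453 and 1278 on the control arrays and 570, 670 and 892 on the high-iron arrays. Every high-iron mouse was below every control mouse, although the controls themselves differed widely. The fold change was -2.61 (the ratio of mean signals, with a minus sign for lower on iron), with a log2 difference of -1.36 (standard error 0.158, adjusted p = 0.000109, limma). Hsp90aa1, the stress-inducible cytosolic Hsp90, read 1071, 1364 and 1096 in controls and 574, 601 and 673 in high-iron mice. The groups were well apart, and the log2 difference was -0.93 (standard error 0.0888, adjusted p = 1.4e-05, limma), the smallest adjusted p of any probe together with Hsph1. Hsph1, the Hsp110 that releases nucleotide from Hsp70, read 1832, 2032 and 1775 against 1120, 1072 and 992, a log2 difference of -0.82 (standard error 0.0767). Control mice differed little for this gene, and the lowest of them stood well above the highest high-iron mouse.

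Serpinh1 encodes Hsp47, the collagen chaperone of the endoplasmic reticulum. It read 1944, 2021 and 2085 in controls and 1191, 1331 and 1177 in high-iron mice (log2 difference -0.71, standard error 0.0742, adjusted p = 2.68e-05, limma). Each group was tight and the gap between them was wide. Hspb1, the small heat shock protein Hsp27, read 3955, 4080 and 3841 against 2263, 3235 and 2213 (log2 difference -0.65, standard error 0.103, adjusted p = 0.0046). High-iron replicate 2 lay nearer to the controls than the other high-iron mice, and Hspb1 no longer passed without high-iron replicate 1 (adjusted p = 0.143) or control replicate 2 (0.0507). Stip1, which hands clients from Hsp70 to Hsp90, read 1673, 1679 and 1896 against 1293, 1267 and 1175 (log2 difference -0.49, adjusted p = 0.00323).

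Hspa1a, an inducible Hsp70, was dim, at 307, 359 and 284 in controls against 224, 256 and 218 (log2 difference -0.44, adjusted p = 0.0443, limma). It has a nearly identical neighbour, Hspa1b, from which its probe may also take RNA, and it lost its call without any of 4 arrays in turn (adjusted p up to 0.431). Hspa8, the constitutive Hsp70, is among the brightest genes of this muscle. Its probe that passed read 21619, 20165 and 22301 against 15786, 15888 and 16191 (log2 difference -0.42, adjusted p = 0.00979), and that call was lost without high-iron replicate 1 (0.111) or control replicate 3 (0.0523). Its brightest probe gave -0.34 (adjusted p = 0.0566), and the diets were fully separate on all 4 of its probes. Bag3, the co-chaperone of chaperone-assisted autophagy at the Z-disc, read 3688, 4254 and 3985 against 2997, 3409 and 2657 (log2 difference -0.40), which did not pass (adjusted p = 0.0844; 0.0145 without high-iron replicate 2).

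No gene of the unfolded protein response passed. The heat shock response and the response of the endoplasmic reticulum to unfolded proteins use different sensors, and the list of the latter had no gene past the test among 19 measured. Within it, Ddit3, the stress factor CHOP, read 391, 429 and 420 in controls and 382, 369 and 363 in high-iron mice (log2 difference -0.15, adjusted p = 0.970, limma), and Dnajb9, a chaperone of the endoplasmic reticulum, was higher on every high-iron array with a log2 difference of 0.20 (adjusted p = 0.899). The diets were fully separate for 2 of these genes in the higher and 3 in the lower direction, against 5.62% and 5.57% of all genes. Their log2 differences ran from -0.17 to 0.40, and the median was -0.06. Serpinh1, which also works in the endoplasmic reticulum, was counted with the co-chaperones.

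**Figure D2:**
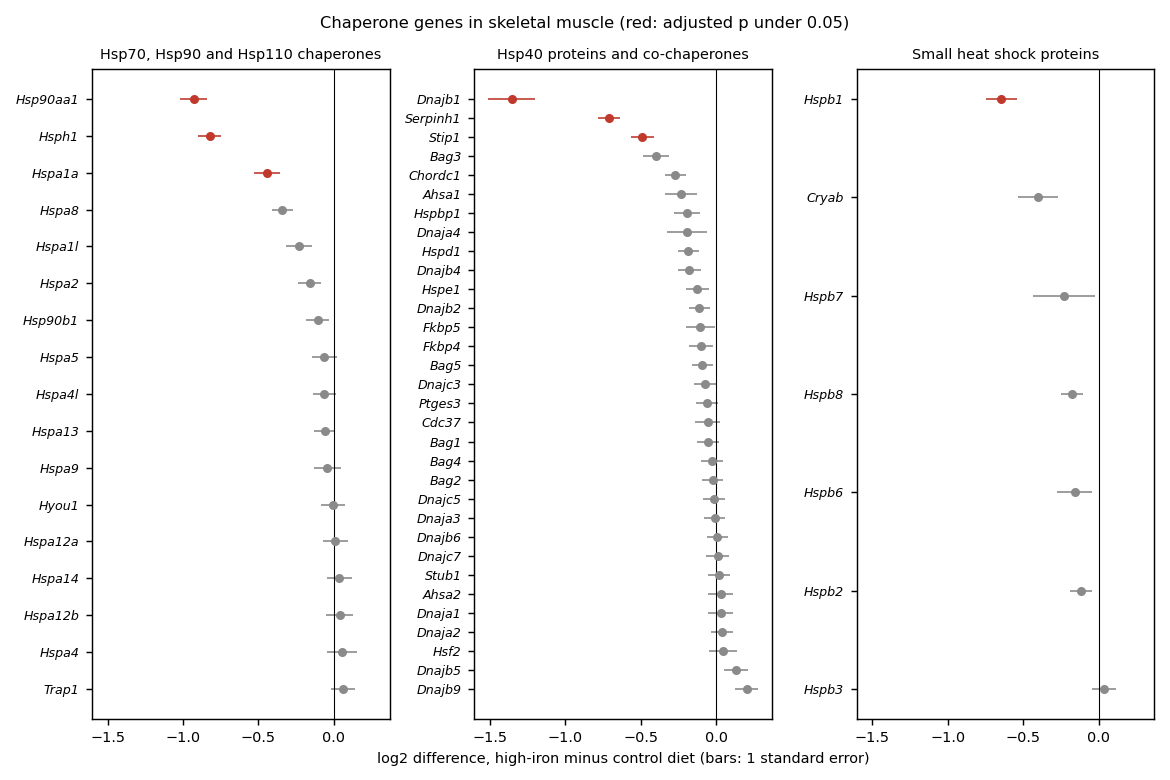
Log2 difference between the diets, high-iron minus control (horizontal axis), with bars of 1 standard error, for the measured genes of the Hsp70, Hsp90 and Hsp110 list, the Hsp40 and co-chaperone list and the small heat shock protein list, each by its brightest probe. The 7 genes past the test (adjusted p under 0.05) are drawn in red and all lie below 0, from -1.36 for Dnajb1 to -0.44 for Hspa1a, while the other members lie between -0.40 and 0.20.

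Since many of these genes are known targets of heat shock factor 1, the letters of its binding element were looked for in the 250 bases before the annotated start of each called gene (RefSeq, build GRCm38.p6). Promoters were found for 30 of the 37 genes. The element was searched as GAANNTTC or TTCNNGAA, that is, a head-to-head or tail-to-tail pair of its GAA units, each of which reads the same on both strands. It was present for 6 of the 23 genes that fell (Jun, Hspa1a, Cdkn1a, Hspb1, Hsph1 and Slc25a25) and for 1 of the 7 that rose (Gucd1), against 14.5% of 27025 genes. The stretches around the matches of 5 of the genes that fell are printed below as the sequence behind this count, in 3 chaperone genes, an immediate early gene and a cell cycle inhibitor gene. They read 5′ to 3′ on the strand of the gene, with the element in capitals and 12 bases to each side:
Hsph1: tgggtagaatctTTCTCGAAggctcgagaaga
Hspb1: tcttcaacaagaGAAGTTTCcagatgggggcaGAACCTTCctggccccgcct
Hspa1a: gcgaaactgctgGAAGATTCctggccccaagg
Jun: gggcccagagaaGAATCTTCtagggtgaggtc
Cdkn1a: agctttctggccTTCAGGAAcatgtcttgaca

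The Hsph1 stretch lies at chr5:149636350-149636381 on the minus strand, 45 to 14 bases before the start. Hspb1 holds a pair of elements at chr5:135887790-135887841 on the plus strand. The Hspa1a stretch is at chr17:34972241-34972272 (minus strand), that of Jun at chr4:95052331-95052362 (minus strand) and that of Cdkn1a at chr17:29090911-29090942 (plus strand). All of them are upstream sequence in front of an annotated transcript start. A match is a description of letters and not a measured site, and no match was found in the windows of Dnajb1 and Serpinh1, while Hsp90aa1 was not among the promoters searched. The cAMP response element TGACGTCA was found in front of 1 gene that fell, Slc25a25, against 1.77% of all genes. The E-box CACGTG was found for 3 genes that fell (Klf4, Ppp1r3c and Hsph1) and 2 that rose (Cited2 and Gadd45b), against 6.86%. The FoxO site TGTTTAC and the D-box TTATGTAA, searched on both strands, were found for none of the called genes and for 3.54% and 0.977% of all genes.

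Immediate early genes and other fast-responding transcription factors made up the next group of falls. Fos, Jun and Atf3 passed lower out of 27 immediate early genes and none passed higher, against 0.153% and 0.051% of all genes. The list's median was -0.09. Of these 27, 10 had an unadjusted p under 0.05 in the lower direction and 1 in the higher, where 3.08% and 2.87% of all genes did. The members did not all move one way, since Egr1 was spread widely in both groups.

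Fos, which joins Jun in the AP-1 transcription factor, read 1612, 1188 and 774 in control mice and 509, 499 and 693 in high-iron mice. The groups did not overlap, but control replicate 3 came close to high-iron replicate 3. Its log2 difference was -1.03 (standard error 0.163, adjusted p = 0.0045, limma), and it did not pass without high-iron replicate 1 (adjusted p = 0.143). Jun, its partner, read 704, 628 and 590 against 451, 435 and 533 (log2 difference -0.44, adjusted p = 0.0428), and lost its call without any of 4 arrays in turn (adjusted p up to 0.368). Atf3, a stress-induced repressor of the same family, was dim at 311, 360 and 295 against 218, 255 and 234 (log2 difference -0.45, adjusted p = 0.0259), and lost its call without any of 3 arrays in turn (adjusted p up to 0.332). Egr1, the zinc finger factor of the same early wave, read 1707, 2241 and 679 against 1166, 1681 and 2297. Its groups overlapped fully (log2 difference 0.26, standard error 0.264), and control replicate 3 held the lowest value of all. Its relative Egr3, which muscle spindles need, read 538, 855 and 443 against 259, 352 and 474 (log2 difference -0.75, adjusted p = 0.166), with high-iron replicate 3 inside the control range. With 1 array left out Egr3 ran from -0.48 (without control replicate 2) to -0.96, and it passed without control replicate 3 (adjusted p = 0.0102) or high-iron replicate 3 (0.0156).

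Klf4, a zinc finger factor of stress and differentiation, read 801, 1054 and 991 in controls and 511, 561 and 662 in high-iron mice (log2 difference -0.71, standard error 0.098, adjusted p = 0.00076, limma). The other probes of Klf4 also passed, at -0.63 and -0.44. Klf2, a factor known from endothelium, overlapped between the diets at 1605, 1641 and 1171 against 813, 945 and 1363 (log2 difference -0.52, adjusted p = 0.312), and ran from -0.36 without high-iron replicate 1 to -0.73 without high-iron replicate 3 (0.00366), passing also without control replicate 3 (0.0233). Nfil3, a basic leucine zipper repressor tied to the clock, read 1485, 1401 and 1143 against 885, 817 and 737 (log2 difference -0.72, adjusted p = 0.000286). Id1, which blocks differentiation factors and is a standard target of bone morphogenetic protein signalling, read 792, 756 and 808 against 475, 448 and 515. All high-iron mice were far below all controls, with a log2 difference of -0.71 (standard error 0.0745, adjusted p = 2.68e-05). Id1 was the only 1 of 20 measured Id and bone morphogenetic protein target genes to pass. Id3, its relative, was lower on all high-iron arrays but did not pass (log2 difference -0.25, adjusted p = 0.514).

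Genes that hold back growth did not share a direction. Cdkn1a, the cyclin-dependent kinase inhibitor p21, fell from 734, 766 and 688 to 455, 450 and 475 (log2 difference -0.66, standard error 0.0724, adjusted p = 4.89e-05, limma). The second probe of Cdkn1a fell as well, by 0.45 on the log2 scale. Gadd45b, a stress sensor that binds kinases, rose from 378, 363 and 375 to 467, 482 and 541 (log2 difference 0.42, adjusted p = 0.0178), but not without control replicate 2 (adjusted p = 0.153) or high-iron replicate 3 (0.121). Its relative Gadd45a, which denervated muscle raises, read 699, 723 and 691 against 881, 935 and 852, apart but short of the threshold (log2 difference 0.34, adjusted p = 0.0804). Among 18 growth arrest and p53 target genes, 1 passed in each direction, against 0.051% of all genes higher and 0.153% lower.

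Among the genes that rose, those of fatty acid synthesis were the only list of the 50 with more than 1 higher member past the test. Scd1, the desaturase that makes oleate from stearate, read 876, 1121 and 694 in controls and 1736, 1717 and 1337 in high-iron mice. The lowest high-iron mouse was above the highest control, with a log2 difference of 0.85 (standard error 0.122, adjusted p = 0.00135, limma; 0.0539 without high-iron replicate 1). Fasn, fatty acid synthase, read 501, 512 and 509 against 759, 590 and 709. The controls were almost equal and high-iron replicate 2 was the nearest to them (log2 difference 0.43, standard error 0.0834, adjusted p = 0.043). Fasn passed without only 1 of the 6 arrays left out in turn (adjusted p up to 0.421). Acaca, acetyl-CoA carboxylase, which makes the building block that Fasn uses, read 508, 525 and 537 against 593, 619 and 590 (log2 difference 0.20, adjusted p = 0.809).

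Scd1 and Fasn were the only members of their list to pass, where 0.051% of all genes passed higher and 0.153% lower. The median of the 25 measured genes of fatty acid and triglyceride synthesis was -0.00, and 11 of them were above 0. Among the 25, 4 had an unadjusted p under 0.05 in the higher direction and none in the lower, against 2.87% and 3.08% of all genes. Arrays did not overlap for 5 in the higher and 1 in the lower direction, against 5.62% and 5.57% of all genes. Fat tissue between the fibres also makes Scd1 and Fasn. Of 13 adipocyte markers measured, none passed in either direction, and their summed level was 21073 to 28371 in controls and 19733 to 26976 in high-iron mice, with the groups overlapping. Plin4, a fat droplet coat protein, was the 1 adipocyte marker with the diets fully separate (log2 difference 0.25, adjusted p = 0.544, limma). Cfd, adipsin, was on the list but not among the named probes, so it is in neither the count nor the sum. The study itself lists adipsin among the genes that rose in this muscle on the high-iron diet. The part of fat tissue in the rises of Scd1 and Fasn was not tested. Cholesterol synthesis, whose genes share the SREBP family of regulators with fatty acid synthesis, had no gene with an unadjusted p under 0.05 among 14 measured.

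The balance between sugar and fat as fuel is set in muscle by a few regulators, and several of them differed in size without passing. Pdk4, the kinase that closes pyruvate dehydrogenase in fasting, read 13669, 9279 and 8488 in controls and 13556, 17699 and 13752 in high-iron mice. Control replicate 1 was as high as the high-iron mice (log2 difference 0.54, adjusted p = 0.155, limma), and with 1 array left out the difference ran from 0.40 (without control replicate 3) to 0.75 (without control replicate 1, adjusted p = 0.000764, where alone it passed). Txnip, which restrains glucose uptake, read 7352, 8284 and 6816 against 10085, 9855 and 9279, apart but short of the threshold (log2 difference 0.38, adjusted p = 0.0636; 0.0322 without control replicate 2). Pfkfb3, which sets the level of the main activator of glycolysis, read 905, 1469 and 1555 against 1837, 1887 and 1857 (log2 difference 0.55, adjusted p = 0.154), and the difference was 0.30 without control replicate 1 and 0.69 without control replicate 3 (adjusted p = 0.0113). Angptl4, an inhibitor of lipoprotein lipase, read 365, 300 and 276 against 435, 496 and 339, with high-iron replicate 3 inside the control range (log2 difference 0.43, adjusted p = 0.299), and the difference was 0.30 without high-iron replicate 2 and 0.58 without high-iron replicate 3 (adjusted p = 0.0156).

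Fat droplets and glycogen each gave 1 gene that fell. G0s2, the inhibitor of the lipase that opens fat droplets, read 770, 732 and 907 against 584, 575 and 540 (log2 difference -0.50, standard error 0.0811, adjusted p = 0.00564, limma). All high-iron mice were below all controls, and the call held without each array in turn. Ppp1r3c, the subunit that brings protein phosphatase 1 to glycogen, is very bright in this muscle, at 13146, 12535 and 11774 in controls and 9323, 8735 and 8683 in high-iron mice. The groups were apart by more than the range of either (log2 difference -0.49, standard error 0.0732, adjusted p = 0.00252). Gys1, muscle glycogen synthase, read 1760, 1943 and 1888 against 1614, 1571 and 1665 (log2 difference -0.20, adjusted p = 0.809).

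Of the mitochondrial genes, 1 fell steeply. Slc25a25, a calcium-regulated carrier that exchanges ATP-magnesium for phosphate across the inner mitochondrial membrane, read 616, 648 and 681 in controls and 211, 315 and 430 in high-iron mice. Controls were close together, while high-iron replicate 1 fell to the level of the dimmest probes. The log2 difference was -1.08 (standard error 0.146, adjusted p = 0.000653, limma). It was the only 1 of 38 measured Slc25 carriers to pass, and the list's median was 0.01. None of 76 measured genes of the respiratory chain and ATP synthase passed, and their log2 differences ran from -0.24 to 0.23 with a median of -0.02. None of 20 genes of the tricarboxylic acid cycle passed, and Idh2, mitochondrial isocitrate dehydrogenase, had the smallest p there, at 1915, 2502 and 2616 against 2984, 2915 and 3125 (log2 difference 0.37, adjusted p = 0.217; log2 difference 0.23 without control replicate 1).

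Several of the genes that fell are known mainly from muscle fibres. Mettl21c, a protein lysine methyltransferase made in skeletal muscle, read 3324, 2950 and 2595 in controls and 1738, 1686 and 1507 in high-iron mice. The lowest control was far above the highest high-iron mouse (log2 difference -0.84, standard error 0.0862, adjusted p = 2.68e-05, limma), and no other of the 11 measured methyltransferase genes passed. Ip6k3, the muscle inositol hexakisphosphate kinase, read 1736, 1553 and 1855 against 1148, 1190 and 1124 (log2 difference -0.57, adjusted p = 0.000653). Ppp1r27, a muscle regulatory subunit of protein phosphatase 1, read 2156, 2478 and 2263 against 1820, 1507 and 1461 (log2 difference -0.53, adjusted p = 0.0046; 0.0707 without control replicate 2). Pdlim1, which ties alpha-actinin to the cytoskeleton at the Z-disc, read 1681, 1785 and 2003 against 1139, 1291 and 1091. Its groups were clearly apart (log2 difference -0.64, standard error 0.0822, adjusted p = 0.000369), and its relative Pdlim7 had a log2 difference of -0.19 (adjusted p = 0.905).

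Fbxo32, the muscle ubiquitin ligase atrogin-1, read 816, 1003 and 754 in controls and 1146, 1290 and 1114 in high-iron mice. It rose with a log2 difference of 0.47 (standard error 0.0911, adjusted p = 0.0387, limma), but lost its call without any of 4 arrays in turn (adjusted p up to 0.195), and its second probe, which is dimmer, gave 0.23 (adjusted p = 0.914). It was the only 1 of 27 FoxO targets and atrophy genes to pass, and their median was 0.00. None of 37 measured proteasome subunits passed.

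The fibre type genes showed no call. Among 15 fast fibre contractile genes the median was -0.04 and none passed, and among 16 slow fibre genes it was 0.04 and none passed. At an unadjusted p under 0.05, 2 fast genes were lower and none higher, while 3 slow genes were higher and none lower. For all genes these shares were 3.08% lower and 2.87% higher. Above 0 were 4 of the fast and 12 of the slow genes. Myl2, the slow and cardiac myosin regulatory light chain, illustrates how uneven the slow genes were, at 491, 266 and 632 in controls and 791, 948 and 413 in high-iron mice (log2 difference 0.64, standard error 0.233, adjusted p = 0.819, limma). High-iron replicate 3 lay inside the control range, and with 1 array left out the difference ran from 0.28 (without control replicate 2) to 0.99 (without high-iron replicate 3, adjusted p = 0.0495).

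Genes of the matrix around the fibres fell in part. Ccn2, connective tissue growth factor, read 1948, 1638 and 1446 in controls and 720, 1238 and 1143 in high-iron mice (log2 difference -0.73, standard error 0.136, adjusted p = 0.0291, limma), with high-iron replicate 1 far below the rest, and it lost its call without any of 3 arrays in turn (adjusted p up to 0.193). Col4a1, a chain of basement membrane collagen IV, read 2310, 2334 and 2346 against 1640, 1906 and 1669 (log2 difference -0.43, adjusted p = 0.0144), and also lost its call without any of 3 arrays in turn (adjusted p up to 0.193). The controls were almost equal. Its partner chain Col4a2 (log2 difference -0.36, adjusted p = 0.0566) and the fibrillar collagen Col1a1 (-0.49, adjusted p = 0.0614; 0.00105 without control replicate 2) were apart between the diets without passing. Of 34 collagen and matricellular genes, 2 passed lower, against 0.153% of all genes, and the median was -0.06. Without adjustment, 11 had a p under 0.05 in the lower and 1 in the higher direction, against 3.08% and 2.87% of all genes. Fibroblast markers, which include Col1a1, summed to 18108 to 20635 in controls and 17860 to 20651 in high-iron mice, none of the 9 measured passed, and their part in these values was not tested.

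Transport genes gave single calls. Slc38a2, the amino acid transporter SNAT2, read 850, 797 and 870 in controls and 570, 679 and 617 in high-iron mice (log2 difference -0.43, adjusted p = 0.0166, limma), with the call lost without any of 4 arrays in turn (adjusted p up to 0.246). Slc30a2, a zinc transporter of vesicles, read 476, 476 and 406 against 352, 355 and 316 (log2 difference -0.41, adjusted p = 0.0434), and it passed without only 1 of the 6 arrays left out in turn (adjusted p up to 0.347). Noct, nocturnin, a rhythmic phosphatase of NADP(H), read 1017, 985 and 1028 against 731, 735 and 782 (log2 difference -0.43, adjusted p = 0.0061; 0.0904 without high-iron replicate 1), and its other probe gave -0.40 (adjusted p = 0.083). Cdr2, an antigen of paraneoplastic cerebellar disease, read 347, 433 and 394 against 256, 293 and 284 (log2 difference -0.49, adjusted p = 0.00979; up to 0.193 with 1 array left out).

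The highest rises belonged to S100a8 and S100a9, whose products pair as calprotectin, a metal-binding protein of neutrophils and monocytes that withholds manganese, zinc and iron from microbes. S100a8 read 273, 271 and 243 in controls, close to the level of the median probe, and 682, 819 and 378 in high-iron mice (log2 difference 1.18, standard error 0.162, adjusted p = 0.000736, limma). S100a9 read 287, 273 and 286 against 596, 657 and 404 (log2 difference 0.94, standard error 0.115, adjusted p = 0.000221). For both genes, high-iron replicate 2 was the highest and replicate 3 the lowest of the high-iron mice, and all were above every control.

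The other neutrophil markers did not pass. Of 16 measured, S100a8 and S100a9 passed higher, against 0.051% of all genes, and 14 did not pass. Ngp, a granule protein, read 231 to 257 in controls and 228 to 262 in high-iron mice, and Camp, cathelicidin, 200 to 235 and 191 to 222, both near background. Lcn2, which binds bacterial iron chelators, read 265 to 286 and 267 to 302. Ltf, lactoferrin, came closest, at 276, 257 and 269 against 306, 302 and 281 (log2 difference 0.15, adjusted p = 0.970, limma). The summed level of the 16 markers was 4099 to 4290 in controls and 4313 to 5207 in high-iron mice, which includes S100a8 and S100a9 themselves. Macrophage markers summed to 4851 to 5405 and 4545 to 5564, with none of 13 past the test. In whole muscle, more cells of a type and more RNA per cell cannot be told apart, and the part of white blood cells in these rises was not tested.

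Other genes that rose had separate roles. Cited2, a coregulator that competes with hypoxia-inducible factor 1 for p300, read 1473, 1810 and 1448 in controls and 2633, 2397 and 2099 in high-iron mice, all above the controls (log2 difference 0.59, standard error 0.0915, adjusted p = 0.00323, limma; 0.0936 without high-iron replicate 1). The second probe of Cited2 overlapped between the diets at 332, 386 and 385 against 414, 386 and 367 (log2 difference 0.08, adjusted p = 0.995). Among 21 genes induced by hypoxia it was the only call, and Vegfa, the vascular growth factor, gave -0.34 (adjusted p = 0.432; 0.00755 without control replicate 1, which was the lowest control). Galnt15, an enzyme that starts mucin-type sugar chains, read 365, 346 and 372 against 508, 580 and 529 (log2 difference 0.58, standard error 0.0744, adjusted p = 0.000369). Its groups were tight and far apart, while its 3 dimmer probes gave 0.21, 0.17 and 0.02 and did not pass. Gucd1, a guanylyl cyclase domain protein of little known function, read 1243, 1361 and 1378 against 1734, 1693 and 1760 (log2 difference 0.38, adjusted p = 0.0309). Gucd1 passed without only 1 of the 6 arrays left out in turn (adjusted p up to 0.193).

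Of the probes with no gene name, probe 105700270 read 609, 1116 and 616 in controls and 325, 295 and 432 in high-iron mice, a fall of a size near that of Slc25a25 (log2 difference -1.11, adjusted p = 0.00122, limma). Probe 3610484 fell by 0.66 on the log2 scale (adjusted p = 7.52e-05). Probe 106450452 rose from 1040, 922 and 932 to 1336, 1448 and 1304 (log2 difference 0.50, adjusted p = 0.00256).

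The genes that handle iron gave no call. Of 34 measured genes of iron uptake, storage, export and sensing none passed, and their median was -0.01. Tfrc, the transferrin receptor, had the smallest p among them, at 1883, 1636 and 2376 in controls and 1447, 1464 and 1234 in high-iron mice. Every high-iron mouse was below every control, with a log2 difference of -0.50 (standard error 0.102, adjusted p = 0.0638, limma), and with 1 array left out it ran from -0.35 (without control replicate 3) to -0.62 (without control replicate 2, adjusted p = 0.0118, where alone it passed). Fth1, the ferritin heavy chain, read 2150, 3403 and 4235 against 2925, 4436 and 1761, spread widely with no order by diet. Ftl1, the light chain, read 4681, 4300 and 4330 against 4094, 4592 and 4052.

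Slc40a1, ferroportin, the only known iron exporter, read 1291, 1442 and 1220 in controls and 1475, 1280 and 1274 in high-iron mice, with overlapping groups (log2 difference 0.03, standard error 0.081, with its sign turning under 2 of the 6 fits without 1 array). Hjv, hemojuvelin, was among the brightest genes of this muscle, at 13614, 12954 and 13083 against 13188, 11746 and 13146 (log2 difference -0.06, adjusted p = 0.995, limma). Its partner Neo1, neogenin, gave -0.13 (adjusted p = 0.995). Aco1, which in its iron-free form is iron regulatory protein 1, read 248, 247 and 248 against 279, 259 and 303 (log2 difference 0.17, adjusted p = 0.938). Of 14 measured genes of iron-sulfur cluster assembly none had an unadjusted p under 0.05 in either direction.

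The genes of heme and of defence against oxidants gave no call either. Hmox1, heme oxygenase 1, the classic gene of oxidative stress, read 485, 465 and 446 in controls and 432, 438 and 382 in high-iron mice (log2 difference -0.16, adjusted p = 0.970, limma). Alas1, the first enzyme of heme synthesis outside red cells, read 6743, 6103 and 7065 against 5579, 6047 and 5426 (log2 difference -0.22, adjusted p = 0.775). In both genes the high-iron mice were below all controls by a small margin. Of 23 antioxidant enzymes none passed, and Gpx1, glutathione peroxidase 1, gave -0.20 (adjusted p = 0.888). Of 23 genes of glutathione synthesis and transfer none passed. Mt1, the metallothionein that binds zinc and copper, read 4179, 6245 and 2405 against 1992, 2568 and 2202. Control replicate 3 lay among the high-iron mice (log2 difference -0.83, standard error 0.19, adjusted p = 0.144), and with 1 array left out the difference ran from -0.50 (without control replicate 2) to -1.19 (without control replicate 3, adjusted p = 6.99e-06, where alone it passed). Mt2 had a log2 difference of -0.43 (adjusted p = 0.170), which ran from -0.31 (without control replicate 2) to -0.57 (without control replicate 3, adjusted p = 0.00388, where alone it passed).

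**Figure D3:**
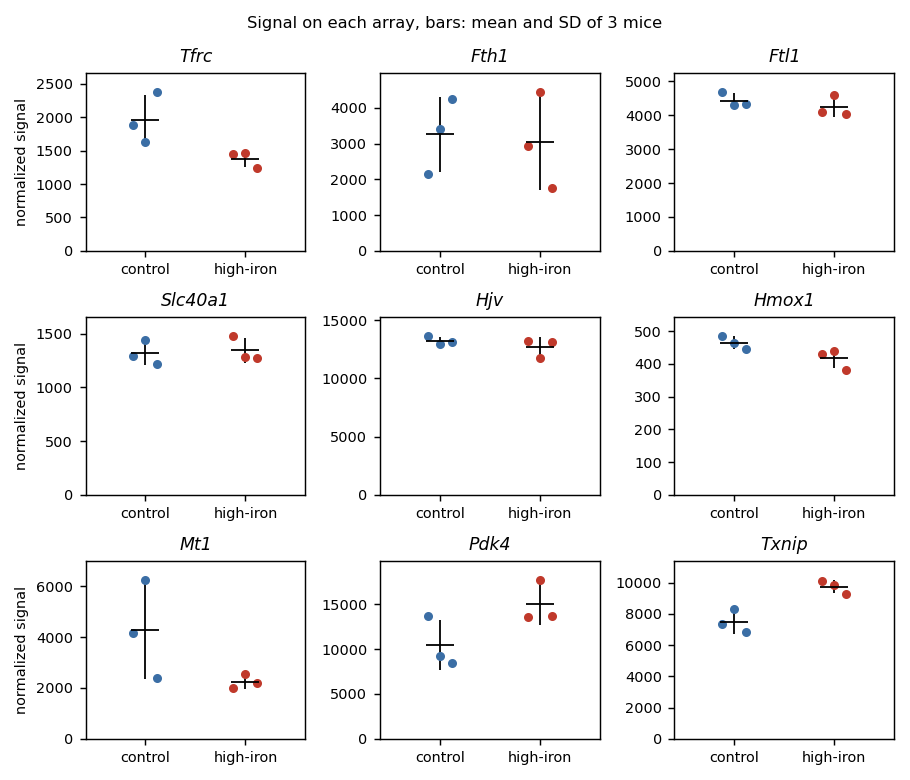
Normalized signal (vertical axis, from 0) of each of the 3 control and 3 high-iron mice for 9 genes of iron, metal, oxidant and fuel handling, with horizontal and vertical bars for the mean and SD. Tfrc, Hmox1 and Txnip are apart between the diets without passing the test, Fth1 is spread from 1761 to 4436 with no order by diet, and Hjv stays between 11746 and 13614.

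Over all 50 gene lists described here, 30 had no member past the test, 16 had lower members only, 3 had higher members only and 1 had both. The lists share members, so a called gene can count in more than 1 list, as Cdkn1a did among growth arrest and glucocorticoid-induced genes. Over all genes, by the brightest probe, 27 passed lower and 9 higher. List medians ran from -0.18, for the 7 small heat shock proteins, to 0.06, for 23 genes of mTORC1 and insulin signalling.

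**Figure D4:**
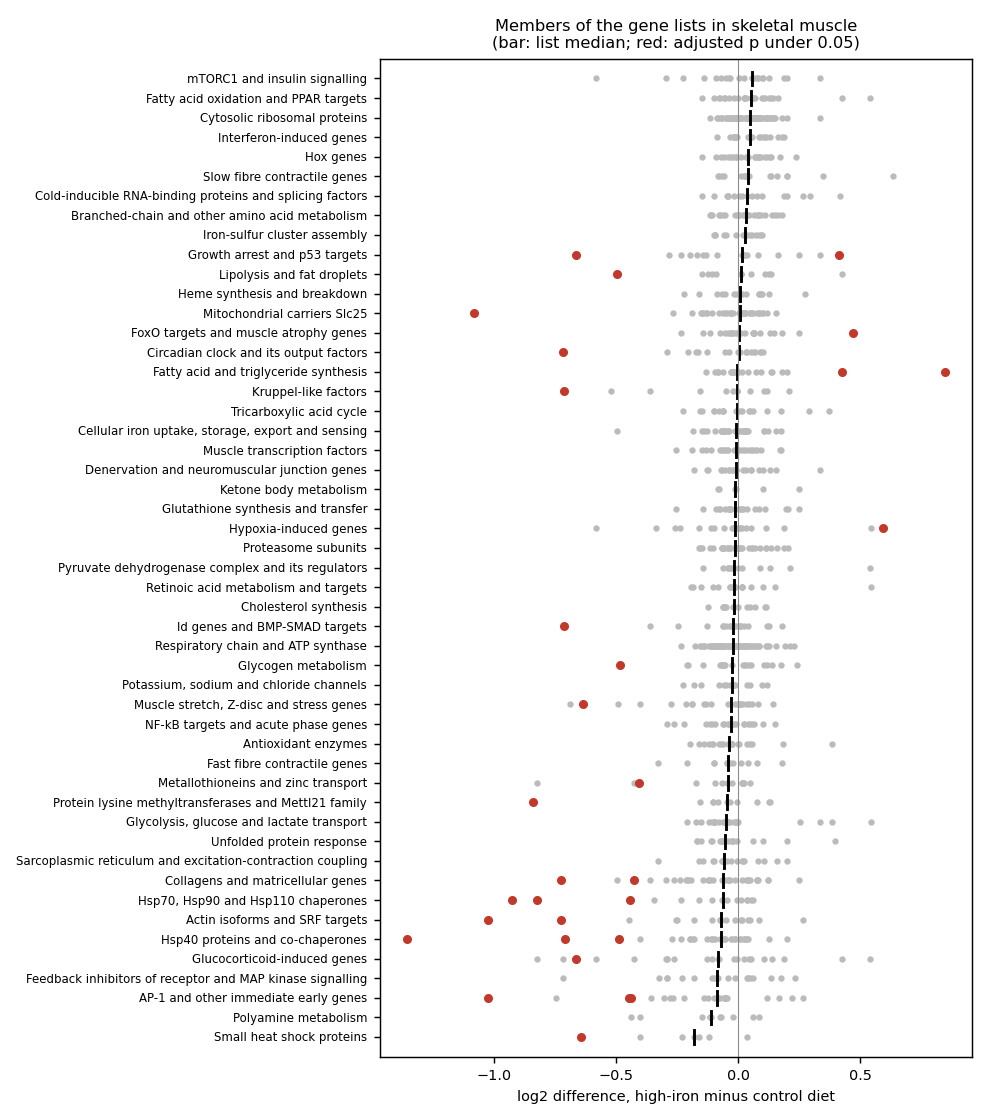
Log2 difference between the diets, high-iron minus control (horizontal axis), of every measured member of the 50 gene lists, sorted by the list median (black bar), with members past the test in red. The medians lie between -0.18 and 0.06, and single members such as Dnajb1, Slc25a25 and Scd1 stand far from the rest of their lists.

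The last question was whether the same genes differed between the diets in the heart. In 6 heart arrays no probe passed (smallest adjusted p = 0.287, limma), and in 4 of them 28 passed, among which were Hsph1, Fos, Cited2 and Ppp1r3c of the genes called in skeletal muscle. The control heart of replicate 2 and the high-iron heart of replicate 1 stood apart from the others, with median correlations of 0.936 and 0.930 to the rest against 0.985 to 0.986. The 4 arrays are those without this pair, which was picked after the data were seen. The study's methods report hybridization problems on 1 control and 1 high-iron heart array, whose failed probes the authors left out. The replicate numbers are not given there. On this pair a probe of Hspa8 read 572 and 471, against 15431 to 17699 on the other 4 hearts. No probe was left out here, so the results with 6 hearts include such values. Of the 10 probes higher in skeletal muscle, 7 were above 0 in the heart, and of the 36 lower, 33 were below 0, or 7 and 28 with the 4 remaining heart arrays. The share of all probes on each side of 0 in the heart was not counted, so these counts do not measure agreement between the tissues. With 6 hearts they include genes near background there, such as Mettl21c (-0.11) and Slc25a25 (-0.08). The difference of the diet effect between the tissues was tested itself (limma, with mouse, assumed from diet and replicate number, as a random block). It passed for 0 probes (0%, smallest adjusted p = 0.514), with 3.35% of all probes at an unadjusted p under 0.05.

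Without the pair of heart arrays that stood apart, the tissue difference passed for 8 probes (0.0173%), 3 of them called in skeletal muscle. Fos fell in skeletal muscle, while in the 4 hearts it read 405 and 294 in controls and 602 and 609 in high-iron mice. The log2 differences were -1.03 in skeletal muscle and 0.81 in the heart, and they differed by -1.82 (standard error 0.235, adjusted p = 0.00162; 1.00 with all 12 arrays). Mettl21c was close to background in the heart, at 283 to 307 in control hearts and 234 to 307 in high-iron hearts, against 1507 to 3324 in skeletal muscle (tissue difference -0.82, adjusted p = 0.00842). Slc25a25 was likewise near background in the heart, at 216 to 246 and 172 to 247 (tissue difference -1.19, adjusted p = 0.0364). A fall of either gene in the heart could not have been measured at such levels, so these 2 differences give the skeletal muscle fall again and do not compare responses.

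Acta1, skeletal alpha-actin, gave the opposite picture. In skeletal muscle it was among the brightest probes, at 63976, 65371 and 65371 in controls and 61092, 62307 and 62307 in high-iron mice (log2 difference -0.07). Its values there were set by rank at the top of the common distribution, several of them equal, so that a change in skeletal muscle may not show and the difference between tissues rests on the heart. In the heart it read 8899, 4713 and 4746 against 2460, 1827 and 2583, and the tissue difference was 1.51 without the pair of arrays (adjusted p = 0.00213) and 1.30 with all 12 arrays (adjusted p = 1.00, limma). Among the 5 genes whose tissue difference had the smallest p with the whole set of arrays, Gadd45b had a value of 0.44 and Art4, a blood group ADP-ribosyltransferase gene, of -0.37, neither of which passed.

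Several chaperone genes had log2 differences below 0 in both tissues. Hsph1 read 1654, 3190 and 1702 in control hearts and 851, 912 and 913 in high-iron hearts, none of them overlapping (heart log2 difference -1.22 with all 6 arrays, and -0.88 with 4, adjusted p = 0.000165, limma). Its skeletal muscle difference of -0.82 lay close to the latter. Hsp90aa1 gave -0.65 in 6 hearts and -0.44 in 4 (adjusted p with 4 hearts = 0.0756, limma). Serpinh1 gave -0.46 and -0.40 (0.290), and Dnajb1 gave -0.97 and -0.42 (0.960). Hsp90aa1, Serpinh1 and Dnajb1 did not pass in the heart, and the diets overlapped over the 6 hearts for Serpinh1 and Dnajb1. The control heart that stood apart held the highest value for each, at 5293 for Dnajb1. The high-iron hearts also ran in the same order as the muscles for calprotectin: S100a8 read 653, 258 and 269 in control hearts and 763, 1129 and 598 in high-iron hearts, with replicate 2 the highest and replicate 3 the lowest high-iron sample in both tissues. Control replicate 1 had a high value in the heart and not in skeletal muscle. The labels do not say whether equal replicate numbers in heart and muscle are the same mouse.

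**Figure D5:**
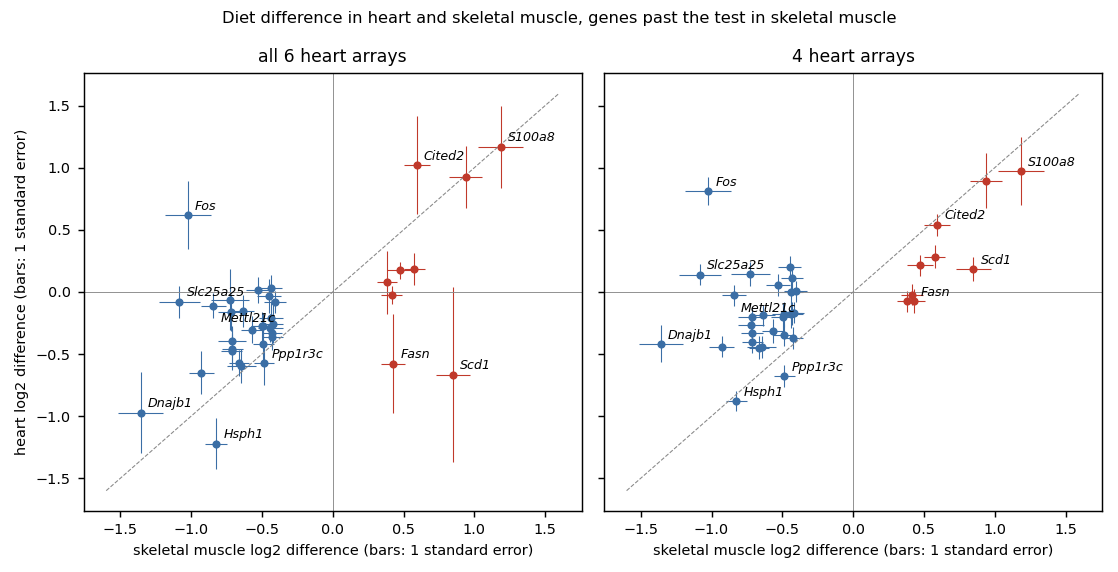
Log2 difference between the diets in the heart (vertical axis) against skeletal muscle (horizontal axis), with bars of 1 standard error, for the genes past the test in skeletal muscle (red rose and blue fell there), with all 6 heart arrays on the left and without the pair that stood apart on the right. The dashed line marks equal differences: S100a8 lies near it in both panels and Hsph1 only on the right, Fos lies on the opposite side of 0 in the heart at 0.62 and 0.81, and Mettl21c lies near 0 there.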

How the data were processed

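Per array, the deposited values are probe intensities as the authors read them in BeadStudio, before normalization; whether a background was subtracted is not given in the sources used here. The authors hybridized 12 samples on Illumina Sentrix Mouse-6 BeadChips, and which chip held which sample is not given in the sources used here. A second deposited table holds intensity values the authors quantile normalized, used only as an alternative. Here, signals were quantile normalized over 12 arrays and taken to log2 without an offset (R 4.3.3). The diets were compared on the 6 skeletal muscle arrays with limma 3.58.1 (lmFit, eBayes, no covariate) and Benjamini-Hochberg adjustment over 46133 probes. The tissue difference used all 12 arrays with diet and replicate number taken as the mouse (consensus correlation 0.0717), an assumption that the labels do not state. A gene with several probes is given by its brightest over the 6 arrays, and second probes of called genes are given beside it. Named genes are all called genes, up to 4 members of smallest p and the defining members of each list, the 5 genes of smallest p for the tissue difference, and tissue markers. Members, lists and rules were chosen with earlier results of these data known. Gene names (17658 symbols) came from GEO's platform annotation, and of 1431 list entries 1316 were measured. The study's methods call the control animals littermates, and the labels do not pair single mice across the diets, so the main fit has no block. Deviations from the group means correlated at 0.0217 to 0.0989 for same-numbered arrays of the diets and at -0.0725 to 0.0472 for the others. Counts with a replicate block are given below. The fits were tested on simulated data. Alternatives changed the scaling, background, offset, filter, prior, weights, fit and arrays. No detection p-values were used, and 3 arrays per diet limit the precision.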

Additional observations from a re-analysis of the deposited data

How the results depend on the processing

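Against 10 higher and 36 lower probes, the count of calls was 0 and 0 with arrays scaled to 1 median or with normexp background correction (offset 50), 0 and 2 in 1 fit over all 4 groups, 23 and 51 with log2 of signal plus 50, 18 and 40 with a trended and robust prior, and 24 and 53 with the replicate block. The fit over all 4 groups gave 16 and 44 without the pair of heart arrays that stood apart, an alternative chosen after seeing the data. With 1 array left out, 6 to 17 probes were higher and 21 to 48 lower, fewest of both without high-iron replicate 1, and 16 and 17 were higher without control replicates 1 and 3. At a 1.4-fold ratio of means, 13 probes were higher and 41 lower, 98 and 137 with normexp background, and 11 to 21 and 37 to 55 with 1 array left out, 21 being higher without high-iron replicate 3. Quantile normalization over 6 arrays, the authors' table, the filter on dim probes and array weights kept the counts of calls within 1.5 times. In that order, 45, 34, 38 and 45 of the 46 called probes still passed, and 37 passed with the trended and robust prior. All 46 called probes kept their direction under these alternatives, and which step of the processing removes the calls was not tested further. The tissue difference passed for 8 probes without the pair of heart arrays, against 0. Signs turned only for genes that had not passed. With 1 array left out, Slc40a1 ran from -0.0411 (without high-iron replicate 1) to 0.0949 (without control replicate 2), and was -0.0254 without control replicate 3. Fth1 ran from -0.47 (without high-iron replicate 2) to 0.20 (without high-iron replicate 3), and was 0.07 without control replicate 3. Egr1 ran from -0.24 (without control replicate 3) to 0.62 (without control replicate 2).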

Other observations

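Some gene groups outside the main account had several members on 1 side. Of 17 cold-inducible RNA-binding proteins and splicing factors none passed, but 5 had an unadjusted p under 0.05 in the higher direction and none in the lower, where 2.87% and 3.08% of all genes did. Cirbp, the cold-inducible RNA-binding protein, read 236, 291 and 270 in controls and 328, 347 and 389 in high-iron mice (log2 difference 0.42, adjusted p = 0.0566, limma; 0.0442 without control replicate 2), and Srsf5, a splicing factor, read 711, 677 and 797 against 807, 889 and 927 (log2 difference 0.26, adjusted p = 0.538). Cirbp was also apart in the hearts, at 305, 380 and 360 against 453, 466 and 460. Of 70 cytosolic ribosomal protein genes 46 were above 0, none passed and the median was 0.05.

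Of 23 glucocorticoid-induced genes, 9 had an unadjusted p under 0.05 in the lower and 3 in the higher direction, against 3.08% and 2.87% of all genes. Cdkn1a alone of them passed. Ddit4, which restrains mTORC1, read 774, 769 and 501 in controls and 366, 482 and 503 in high-iron mice, with control replicate 3 among the high-iron values (log2 difference -0.58, adjusted p = 0.105, limma; 0.000292 without that array). Sgk1, a kinase of sodium transport, read 6423, 7449 and 6330 against 5251, 5052 and 6149 (log2 difference -0.30, adjusted p = 0.467). Errfi1, which holds back epidermal growth factor signalling, read 1548, 2401 and 1021 against 832, 993 and 1031 (log2 difference -0.72, adjusted p = 0.176), again with control replicate 3 among the high-iron mice, and with 1 array left out the difference ran from -0.41 (without control replicate 2) to -1.02 (without control replicate 3, adjusted p = 0.000109, where alone it passed). Control replicate 3 had the lowest control value for Fos, Egr1, Egr3, Errfi1, Ddit4, Mt1 and Dnajb1, and it was also the dimmest control array before normalization; the part of array brightness in these values was not tested.

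Polyamine genes had the second lowest list median, -0.11 over 11 genes, with none past the test. Amd2, an S-adenosylmethionine decarboxylase gene, read 3515, 2823 and 2707 against 2179, 2246 and 2386 (log2 difference -0.40, adjusted p = 0.0930, limma; 0.0280 without control replicate 3), and Smox, spermine oxidase, read 2833, 1743 and 1818 against 1630, 1543 and 1438 (log2 difference -0.44, adjusted p = 0.390; log2 difference -0.21 without control replicate 1).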
